A study of Mus musculus with 6 samples.

Results

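T cells and natural killer (NK) cells were looked for by a rule on RNA in single-cell libraries of the mouse fracture callus, the tissue that bridges a broken bone. A barcode was a member if it carried at least 3 UMIs of Cd3e, Cd3g, Trbc2 and Nkg7 in sum, no UMI of the B cell genes Cd79a and Ms4a1, fewer than 3 UMIs of the macrophage genes C1qa, C1qb and C1qc, and no UMI of the neutrophil gene Csf3r. Only barcodes with at least 700 UMIs and at most 10% mitochondrial UMIs were considered. Of 40224 such barcodes, out of 46944 in the files, 876 were members (2.18%). A UMI is a molecular tag that marks 1 captured RNA molecule.

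Calluses were taken at 14 dpf from femurs of 12-week-old mice, which the study's methods describe as male. The control group was Piezo1f/f, labelled wt, and the knockout group was Col2a1CreERT2; Piezo1f/f, for which the sample labels write Piezo3 and the series text writes Piezo1. Tamoxifen, which activates the Cre enzyme, was given in the control as in the knockout group (75 mg/kg, 5 daily doses, the first on day 5). Each group has 3 libraries, and the comparison between them asks what the deletion of Piezo1, a mechanically gated ion channel, in cells that express the cartilage gene Col2a1 does in the callus. Col2a1 drives Cre in chondrocytes, and whether Piezo1 was deleted in any member was not tested. The study's methods and results give different numbers of mice for these libraries, so how many mice gave 1 library is not settled, and the spread between libraries may hold technical as well as biological variation.

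The libraries held between 57626530 UMIs (knockout 1) and 103784364 UMIs (knockout 2), at a median of 2554 to 9289.5 UMIs per barcode. Members were shallower than the other barcodes, with a median of 3209 UMIs against 7712. Knockout 3 stood apart from the other 5 libraries in its sex-linked RNA. In that library 87.6% of filtered barcodes had a UMI of Xist, the RNA of the inactive X chromosome, and 0.042% had a UMI of a Y-linked gene. In the other 5 libraries at most 0.353% had Xist, and 54.0% to 70.0% had a Y-linked gene. Among the members of knockout 3, 92 of 97 carried Xist and 0 carried a Y-linked UMI, which goes against the male mice of the methods. Whether this library is of a female mouse or an exchanged sample was not tested, and its group is taken from its label alone. The 15 pairs of libraries shared 222 barcode sequences in sum, 1 of them between members.

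T cells recognise antigen with a receptor of alpha and beta chains, or of gamma and delta chains, held in a complex with the CD3 proteins, and signal through kinases such as Lck. CD4 marks helper and regulatory T cells, CD8 marks cytotoxic T cells, and NK cells kill without an antigen receptor, using granzymes and perforin, and sense their targets through receptors such as Ncr1 and the Klr families. In bone, IL-17 from gamma delta T cells is known to act on mesenchymal progenitors in fracture repair, while RANKL (Tnfsf11) and interferon gamma (Ifng) act on osteoclasts in opposite directions.

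The promoters of 3 genes that separate the members below are shown from the RefSeq table for GRCm38.p6, 250 bases before to 50 bases after the gene start, read 5′ to 3′ on the gene's own strand. Cd3d encodes the CD3 delta chain and was used neither by the rule nor by the split, Gzma encodes granzyme A, and Ncr1 encodes the NK receptor NKp46. Capitals mark matches on either strand to the core letters of 2 factor families of lymphocytes, AGGAAG (ETS) and TGTGGT (RUNX).

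Cd3d, chr9:44981536-44981835, plus strand: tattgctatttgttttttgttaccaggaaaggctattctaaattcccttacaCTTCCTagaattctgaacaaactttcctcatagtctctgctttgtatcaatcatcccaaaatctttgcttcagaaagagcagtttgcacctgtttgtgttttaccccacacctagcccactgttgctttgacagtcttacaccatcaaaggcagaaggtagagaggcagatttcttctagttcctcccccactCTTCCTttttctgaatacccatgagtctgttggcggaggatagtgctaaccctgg

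Gzma, chr13:113100932-113101231, minus strand: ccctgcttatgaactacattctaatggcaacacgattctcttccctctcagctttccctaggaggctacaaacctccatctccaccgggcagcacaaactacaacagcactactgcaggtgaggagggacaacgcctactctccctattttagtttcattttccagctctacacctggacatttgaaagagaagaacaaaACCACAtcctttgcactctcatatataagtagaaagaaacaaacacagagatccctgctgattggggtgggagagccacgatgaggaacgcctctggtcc

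Ncr1, chr7:4337465-4337764, plus strand, the first of 2 windows listed: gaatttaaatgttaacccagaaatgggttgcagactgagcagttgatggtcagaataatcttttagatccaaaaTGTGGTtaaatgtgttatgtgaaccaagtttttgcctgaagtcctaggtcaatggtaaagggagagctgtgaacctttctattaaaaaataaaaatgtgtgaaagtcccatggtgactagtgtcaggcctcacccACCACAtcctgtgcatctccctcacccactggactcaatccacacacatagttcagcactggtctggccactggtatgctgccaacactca

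The Cd3d window held the ETS letters at -198 and -5 from the gene start, the Gzma window held the RUNX letters at -50, and the Ncr1 window held them at -176 and -41. These letters are common: 35.4% of 32851 promoter windows held the ETS core and 16.8% the RUNX core. A T-box core, GGTGTGA, present in 3.98% of windows, was in none of the 3. Cd3d lies beside Cd3g, one of the rule's genes, with 1355 bases between their starts. The Cd3g window was searched too and is not printed, and it held no match to the ETS, RUNX or T-box core. A match is a description of letters and shows no binding.

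Members were split by the detection of Cd3e or Cd3g, and then by Klrb1c, the gene of the NK receptor NK1.1. Cd3e or Cd3g was detected in 570 members (65.1%), called Cd3-detected below. Of the other 306, 99 had a Klrb1c UMI (11.3% of members) and 207 had none of the 3 genes (23.6%). The median depth of these 3 gates was 2921, 3006 and 8966 UMIs, so the last was deeper than the others. A barcode without Cd3e and Cd3g could enter only through Trbc2 and Nkg7, so the choice itself favours genes that go with Nkg7 in those 306. At the edge of the rule, 110 members had exactly 3 UMIs of the 4 genes, while 134 barcodes with 2 UMIs were left out and 680 members had at least 5. Ptprc, the gene of the leukocyte protein CD45, was detected in 771 members.

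Genes outside the rule were found in most Cd3-detected members. At least 1 UMI of Cd3d, Trac or Trbc1 was found in 539 of 570 of them (94.6%, 95% Wilson interval 92.4 to 96.1), and of the myeloid progenitor genes Elane, Prtn3 and Mpo in 59 (10.4%), with at most 3 UMIs in a cell. The same T cell set was found in 60 of 99 Klrb1c-detected members (60.6%) and in 56 of the remaining 207 (27.1%). Trbc1 is a near copy of the rule gene Trbc2, and Cd3d alone was found in 474 of 570 Cd3-detected and 4 of 99 Klrb1c-detected members. The Klrb1c-detected members without Cd3 carried NK genes: 97 of 99 (98.0%, 92.9 to 99.4) had a UMI of Ncr1, Klre1, Gzma, Eomes or Prf1, against 213 of 570 (37.4%) of the Cd3-detected members. Intervals and upper limits for cells pooled over libraries, here and below, cover counting error only and not the spread between libraries. Of the 570 cells, 198 and 152 came from controls 2 and 3, and of the 99, 47 came from knockout 2.

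The 207 members with none of the 3 genes went against the name. Of these, 117 (56.5%) had at least 3 UMIs of a set of 6 progenitor, basophil and plasmacytoid dendritic cell genes, and 135 had a UMI of Elane, Prtn3 or Mpo, with a median of 21 UMIs over all 207 and a maximum of 1016. Across the members with this set that lacked Cd3, which number 118 with 1 Klrb1c-detected cell, Nkg7 was detected in 117, Trbc2 in 2, Trac in 1 and Cd3d was at 0.6 CPM (UMIs of the gene per 1000000 UMIs, pooled over the libraries), while Prtn3, a serine protease of granulocyte-monocyte progenitors, was at 9239 CPM and Elane, neutrophil elastase, at 8879 CPM. These barcodes entered through Nkg7 and are described by Elane, Prtn3 and Mpo, not as T or NK cells. The pooled UMIs of the other 90 held both T and NK genes, with Cd3d at 72 CPM, below the Cd3-detected gate and above the Klrb1c-detected gate, and Ncr1 at 40 CPM, below the Klrb1c-detected gate and above the Cd3-detected gate.

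**Figure D1:**
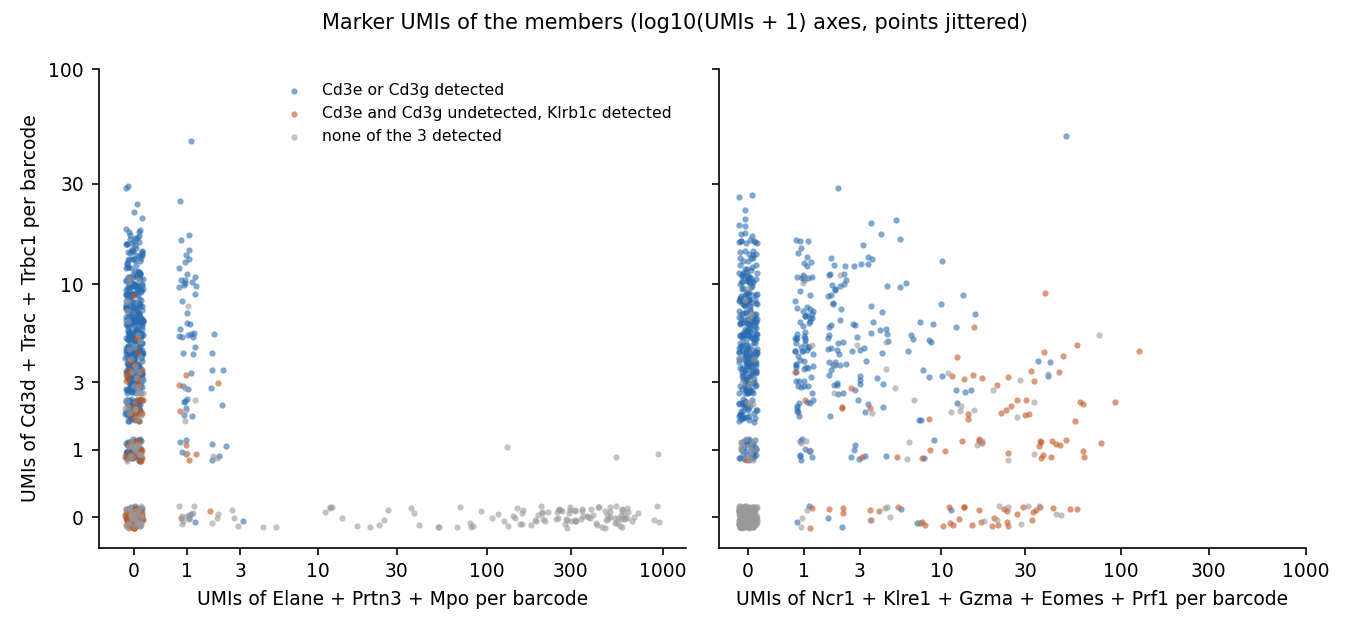
UMIs of Cd3d, Trac and Trbc1 per member (vertical axis) against UMIs of Elane, Prtn3 and Mpo (left) and of Ncr1, Klre1, Gzma, Eomes and Prf1 (right), 1 point per barcode, 876 members, coloured by gate, on log10(UMIs + 1) axes with a small random shift. Barcodes with more than 3 progenitor UMIs form a band at or near 0 T cell UMIs and are all grey, while orange Klrb1c-detected barcodes reach up to 127 NK UMIs.

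The plot of marker levels by gate shows the same split gene by gene. Levels here are UMIs not divided by gene length, so each gene is compared between gates and not with other genes. Cd3d, Trac and Lck lay at 574, 353 and 221 CPM in Cd3-detected members and at 1.1, 2.9 and 1.6 CPM in the 39348 other filtered barcodes, and Trac UMIs were found in 62.5% of the former and 2.82% of the latter, which were deeper. RNA of the matrix-forming cells was present in every gate: the summed level of 11 osteoblast and fibroblast genes was 30155 CPM in Cd3-detected members, led by Col1a1 at 6752 CPM, against 67641 CPM in the other barcodes. Per library this sum was 67154, 12115 and 24050 CPM in controls 1 to 3 and 63598, 26335 and 32221 CPM in knockouts 1 to 3, highest in replicate 1 of both groups. Whether it is free RNA or RNA of attached cells was not tested.

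**Figure D2:**
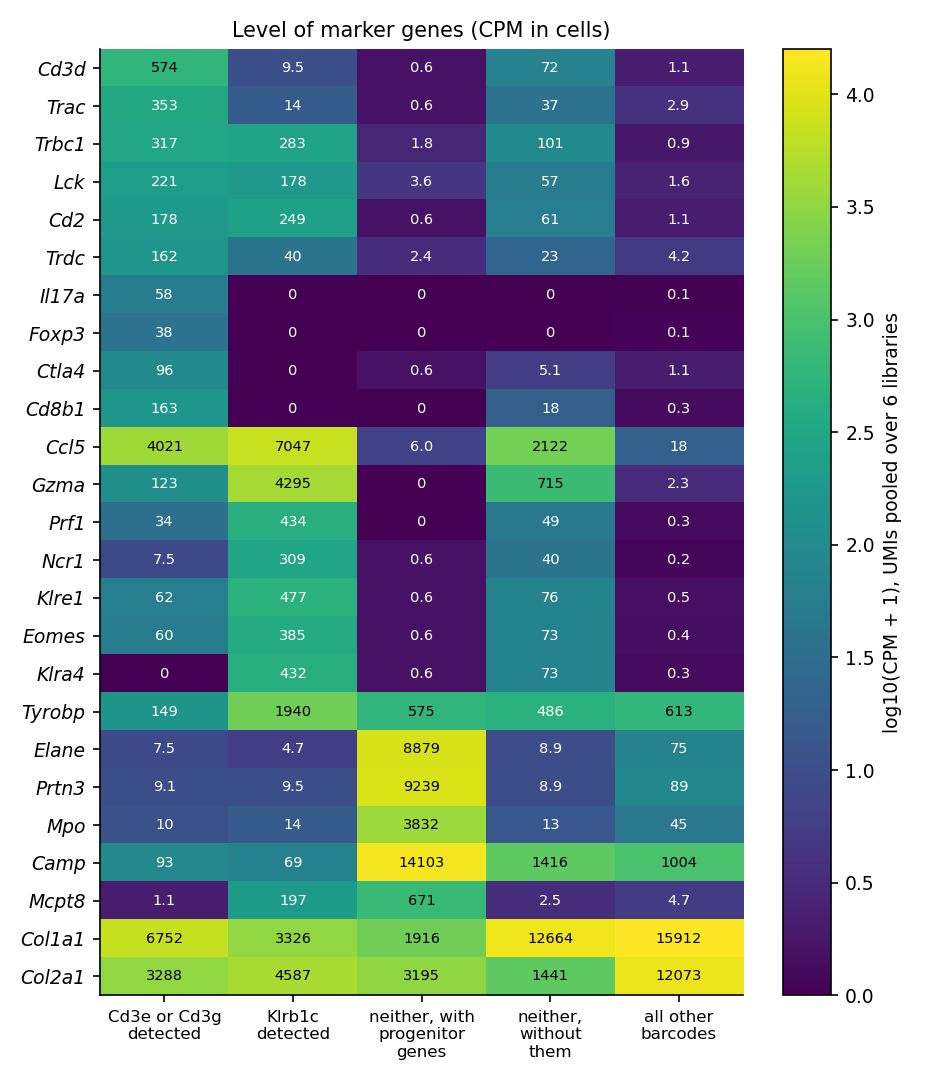
Level of 25 genes (rows) in the 3 gates, with the members lacking Cd3 and Klrb1c divided by the progenitor gene set, and in all other filtered barcodes (columns), as log10(CPM + 1) of UMIs pooled over 6 libraries, with the CPM printed in each cell. Read along a row, Cd3d and Trac are highest in the first column, Gzma and Ncr1 in the second and Elane and Prtn3 in the third, and Trbc1 differs little between the first 2 (317 and 283 CPM).

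Ranked by the ratio of the mean CPM in members to that in other barcodes, the 15 leading genes with at least 50 CPM included Klra8, Gm2682, Ifng, Xcl1, Gzma, Cd8b1, Eomes, Gimap3, Cd3d, Prf1, Trbc1, Ms4a4b, Il2rb and Klre1, with ratios from 324 down to 187. All 15 were higher in members in 6 of 6 libraries. Since members were chosen by RNA in the same cells, this ranking is a description. Klra8 belongs to a family of near-identical genes, as do the Klrb1 genes and Trbc1 with Trbc2, and their counts may be split between copies.

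The antigen receptor genes Cd3d and Trac had UMIs in the Cd3-detected cells of every library. Cd3d was at 244, 623 and 654 CPM in controls 1 to 3 and at 185, 760 and 547 CPM in knockouts 1 to 3, with a UMI in 474 of 570 cells (83.2%). Trac, the constant part of the alpha chain, was at 158, 325 and 481 CPM in the controls and at 156, 425 and 351 CPM in the knockouts. Both genes were lowest in replicate 1 of each group, where the matrix genes above were highest and the cells were few (12 and 21). Over all libraries together, all 15 listed genes of T cell receptor signalling had UMIs, the most abundant being Ptprcap at 358 CPM. Il7r, the receptor for a survival cytokine, was found in 316 cells (55.4%), against 4.09% of the other barcodes, and Il2rb, a subunit of the receptors for IL-2 and IL-15, in 382 (67.0%), against 0.877%. Ccl5, a chemokine of cytotoxic and memory cells and one of the genes named to mark these cells, was in 352 (61.8%), against 4.33% of the other barcodes.

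Most Cd3-detected cells could not be placed by CD4 or CD8. Cd4 was found in 75 (13.2%), Cd8a in 136 (23.9%), both in 0 and neither in 359 (63.0%). A cell with neither may still express one, since at a median of 2816 UMIs a low-abundance RNA is often missed: after each member was thinned to 700 UMIs, 329 were Cd3-detected, and 16 of them had Cd4 and 29 Cd8a. Klrb1c was found in 59 Cd3-detected cells (10.4%), 12 of them with Cd8a and 1 with Cd4.

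Cells with Cd4 and cells with Cd8a differed in the genes that mark regulatory and cytotoxic T cells. The following are pooled values without a test, since only controls 2 and 3 held at least 10 cells of each kind. Foxp3, the lineage factor of regulatory T cells, had a UMI in 21 of 75 Cd4-detected cells and 1 of 136 Cd8a-detected cells. Ctla4, an inhibitory receptor of those cells, was at 259 against 17.4 CPM, and Tnfrsf4 (OX40), a costimulatory receptor, at 413 against 7.26 CPM. In the other direction, Cd8b1, the second chain of CD8, was at 467 CPM in Cd8a-detected cells and 4.80 CPM in Cd4-detected cells, the latter from 2 UMIs (2.61 CPM without knockout 2), and had a UMI in 96 (70.6%) of the former. Ccl5 was at 6218 against 343 CPM, Eomes, a factor of effector and memory cells, at 118 against 4.80 CPM, and Gzmk, granzyme K, at 82.7 against 2.40 CPM. Ifng was found in 40 Cd8a-detected cells (29.4%) and in 8 Cd4-detected cells (10.7%), at median depths of 3264 and 3438 UMIs. Of the 40, 24 came from knockout 2, without which the shares were 18.8% of 85 and 8.96% of 67 cells, while control 2 had Ifng in 2 of 38 Cd8a-detected cells and in 0 of 27 Cd4-detected cells; without it the Cd4 share was 16.7%. Ccl5 in Cd4-detected cells fell to 152 CPM without control 2, which also held every Eomes and Gzmk UMI of those cells.

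Foxp3 was found in 48 Cd3-detected cells (8.42%) and in 0.0813% of the other barcodes, which had a median depth of 7712 UMIs against 2921. Its level was 0, 68.6 and 58.0 CPM in the controls and 0, 25.7 and 24.6 CPM in the knockouts. Replicate 1 of both groups held no Foxp3 UMI, and the groups overlap. Of the 48 cells, 35 also had Ctla4, 21 had Cd4 and 1 had Cd8a.

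A gamma delta and IL-17 profile was present in cells that mostly lacked Cd4 and Cd8a. Trdc, the constant part of the delta chain, had a UMI in 75 cells (13.2%), 72 of them with neither Cd4 nor Cd8a, against 1.86% of the other barcodes. Its level was 33.0, 186 and 174 CPM in the controls and 250, 152 and 59.6 CPM in the knockouts, and the groups overlap. Cd163l1, a scavenger receptor of gamma delta T cells that make IL-17, was found in 31 cells, 27 of which had Trdc. Il17a itself was found in 35 cells (6.14%), against 0.0356% of the other barcodes. Of these 35, 18 had Trdc, 13 had Cd163l1, 13 had Trac, 8 had Cd4 and 0 had Cd8a. Since 1 missed molecule turns a cell from one class to another, these counts describe the cells' detected RNA and not fixed lineages.

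Of the 16 listed cytokines that act on bone cells, 14 had UMIs in Cd3-detected cells. Ltb (lymphotoxin beta) was found in 371 cells (65.1%), against 6.57% of the other barcodes. Tgfb1 was found in 235 (41.2%), below its 60.1% in the other, deeper barcodes. Ifng was found in 101 (17.7%), against 0.198% of the other barcodes. Tnfsf11, which encodes the osteoclast factor RANKL, was found in 40 (7.02%), below its share of 8.96% in the other, deeper barcodes, which include bone cells that make it, and no expression by the T cells is read from it. Il10 had a UMI in 7 cells, Il4 in 3, Csf2 in 2 and Il13 in 0, which allows a share of up to 0.526% of cells with a UMI at this depth. Piezo1 was found in 77 cells (13.5%), against 35.6% of the other barcodes, at 33.0, 31.3 and 49.2 CPM in the controls and 91.0, 36.9 and 21.1 CPM in the knockouts. The Piezo1 values of the groups overlap, and counts of RNA 3′ ends do not show whether the floxed exons are missing.

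The 99 Klrb1c-detected members without Cd3 carried the cytotoxic and receptor genes of NK cells. Gzma was at 2567, 2716 and 317 CPM in the controls and 3525, 7489 and 5075 CPM in the knockouts, with a UMI in 83 cells (83.8%) against 0.709% of the other barcodes. Control 3 was the lowest of the 6 libraries. Knockout 3 held 2 of these cells and knockout 1 held 4, so those values rest on few cells. Ncr1 was at 339, 112 and 254 CPM in the controls and 226, 476 and 308 CPM in the knockouts, and was found in 65 cells (65.7%) against 0.130% of the other barcodes. Klre1, an inhibitory or activating receptor subunit, was found in 67 cells, against 0.374% of the other barcodes, and Prf1, perforin, in 63, against 0.280%.

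The signalling adaptors Tyrobp (DAP12) and Fcer1g were found in 97 and 98 of the 99 cells, and also in 57.4% and 53.7% of the other barcodes, since myeloid cells make both. Itga2, an integrin of circulating NK cells, was found in 30 cells. Itga1 and Cxcr6, markers of tissue-resident innate lymphoid cells, were found in 8 and 4. Detection differs between genes, so these counts are not compared with each other and do not place the cells as circulating or resident. Il17a, Foxp3, Ctla4 and Cd163l1 were at 0 of 99 cells, which allows a share of up to 3.03% of cells with a UMI. Trbc1 was found in 55 cells (55.6%), Trac in 6 and Cd3d in 4. In control 3 these cells also had 74315 CPM of 7 erythroid genes in sum and 5000 CPM of 8 basophil and mast cell genes, against at most 581 and 140 CPM in the other 5 libraries.

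Cd3-detected and Klrb1c-detected members were compared gene by gene within controls 2 and 3 and knockout 2, the libraries with at least 10 cells of each, with edgeR and the library as a block. This limit to Klrb1c was set after the data had been seen, because the remaining Cd3-undetected members carry progenitor genes. Of 6403 genes tested, 83 (1.3%) passed an adjusted p of 0.05, 36 higher in Cd3-detected cells (0.562%) and 47 lower (0.734%). The genes of the rule and of the split were left out of every count below. Since RNA of the same cells set the gates, genes that go with Cd3e, Cd3g, Klrb1c or Nkg7 are favoured on their side by the choice. The counts and adjusted p values of the contrasts between gates therefore describe the gates and are not independent support for their names.

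A minority of the tested receptor and signalling genes of T cells passed, and those that did were higher on the Cd3-detected side. In the T cell receptor complex, 2 of 4 tested genes rose, Cd3d and Trac, and none fell. Cd3d was at 623, 654 and 760 CPM in the Cd3-detected cells of the 3 libraries and at 8.65, 0 and 18.3 CPM in the Klrb1c-detected cells, which differed by 5.93 ± 0.39 on the log2 scale (SE; edgeR, adjusted p = 0.000168), the former higher in 3 of 3 libraries. Trac differed by 4.84 ± 0.44, while Trbc1 differed by 0.60 ± 0.32 and did not pass the test (adjusted p = 0.61). In T cell receptor signalling 5 of 15 genes rose and 0 fell (median log2 fold change 1.16, against 0.04 over all genes): Bcl11b, a factor of T cell identity, by 3.88 ± 0.45, Lat, the adaptor that links the receptor to its pathways, by 2.80 ± 0.33, Cd5 by 5.03 ± 0.71, and Cd6 and Themis, which had no UMI in the Klrb1c-detected cells. Themis did not pass when any one of the 3 libraries was left out.

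Genes of regulatory and activated T cells were higher on the same side, 6 of 10 (median 4.42): Tnfrsf4, Icos, Ctla4, Ikzf2, Capg and Il2ra. Tnfrsf4 differed by 5.52 ± 0.67 and Icos, a costimulatory receptor, by 3.32 ± 0.44. Without the library block Icos (3.46), Ikzf2 (1.88) and Capg (1.64) did not pass. Ctla4 and Il2ra had no UMI in the Klrb1c-detected cells and were at least 12.7-fold and 7.72-fold higher, counted against 3 UMIs over the group. Likewise Cd8b1 was at least 22.5-fold higher, Cd6 at least 17.2-fold and Ccr7, a lymph node homing receptor, at least 6.07-fold. Among the gamma delta and IL-17 genes 1 of 9 rose: Trdc was at 186, 174 and 152 CPM against 43.2, 31.7 and 42.7 CPM, a difference of 2.09 ± 0.34 (adjusted p = 0.0155), without overlap. The Trdc call was lost without control 2 (2.04), without control 3 (1.99) and with DESeq2 (2.08), that of Ikzf2 without control 2 (1.59), that of Capg without control 2 (1.41) or control 3 (1.77), and that of Ccr7 without control 3 (7.65, fitted against no UMI). With DESeq2, Capg and Ccr7 did not pass either. The Ly6c2, Spp1 and Ifi27l2a values were also higher (1.97 ± 0.31, 1.54 ± 0.15 and 5.13 ± 0.47); Spp1, which osteoblasts and macrophages make, was at 649, 4659 and 1070 CPM against 199, 1730 and 391 CPM. Ly6c2 (1.99) and Spp1 (1.46) did not pass without the library block.

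None of the tested NK receptors and granule genes was higher in Cd3-detected cells. Of 20 NK receptors and adaptors 12 were lower (median log2 fold change -2.44), and of 16 cytotoxic and effector genes 9 were lower (median -1.40). Of these 12 and 9 genes, 10 and 6 passed without control 2, 10 and 7 without knockout 2, and 9 and 2 without the library block. The 12 include Klrb1b and Klrb1f, of the same family of near-identical genes as the split gene Klrb1c. Ncr1 was at 8.95, 12.3 and 8.02 CPM in Cd3-detected cells and at 112, 254 and 476 CPM in Klrb1c-detected cells, a difference of -4.70 ± 0.42 (adjusted p = 0.000345). Gzma was at 192, 47.4 and 263 CPM against 2716, 317 and 7489 CPM, a difference of -3.95 ± 0.31, and within each library the Klrb1c-detected side was the higher. Without the library block the Gzma difference did not pass the threshold (adjusted p = 0.148).

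Ccl3 and Ccl4, chemokines that draw macrophages and T cells, differed by -4.40 ± 0.36 and -3.30 ± 0.31, and Xcl1, which attracts cross-presenting dendritic cells, by -2.14 ± 0.26. Perforin (Prf1), Eomes and Ifng were lower by similar amounts, -2.69 ± 0.48, -2.10 ± 0.30 and -2.05 ± 0.31. Prf1 did not pass without control 2 (-2.62) or without knockout 2 (-1.91), and Xcl1, Prf1, Eomes and Ifng did not pass without the library block. Tyrobp and Fcer1g differed by -3.39 ± 0.36 and -2.88 ± 0.25, and Irf8, a transcription factor of myeloid and NK cells, by -4.19 ± 0.32. Klra4 and Klra8 had no UMI in Cd3-detected cells of these libraries and were at least 287-fold and 198-fold lower there. Ccl5 and Gzmb did not pass the test (-0.11 ± 0.26 and -1.04 ± 0.27, adjusted p = 0.956 and 0.125).

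None of the 15 cell cycle genes, 8 MHC genes and 14 stress and immediate early genes tested passed in either direction. Among markers of other cells, Hba-a2 and Hbb-bt (erythroid), Acan (cartilage) and Cma1 (mast cells) were lower in Cd3-detected cells. Cma1 was 1 of 2 tested basophil and mast cell genes. The erythroid sum and the basophil and mast cell sum were high in the Klrb1c-detected cells of control 3 only. Acan did not pass without control 2 (-1.34), without control 3 (-2.13), with DESeq2 (-1.72) or without the library block (-1.99), nor did Hbb-bt with DESeq2 (-1.82). Cma1 did not pass with DESeq2 either (-6.86, fitted against no UMI in Cd3-detected cells). Without control 2 the count of genes past the threshold was 55 and without the library block it was 33, and the members' gates were set by RNA counts from the same cells.

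**Figure D3:**
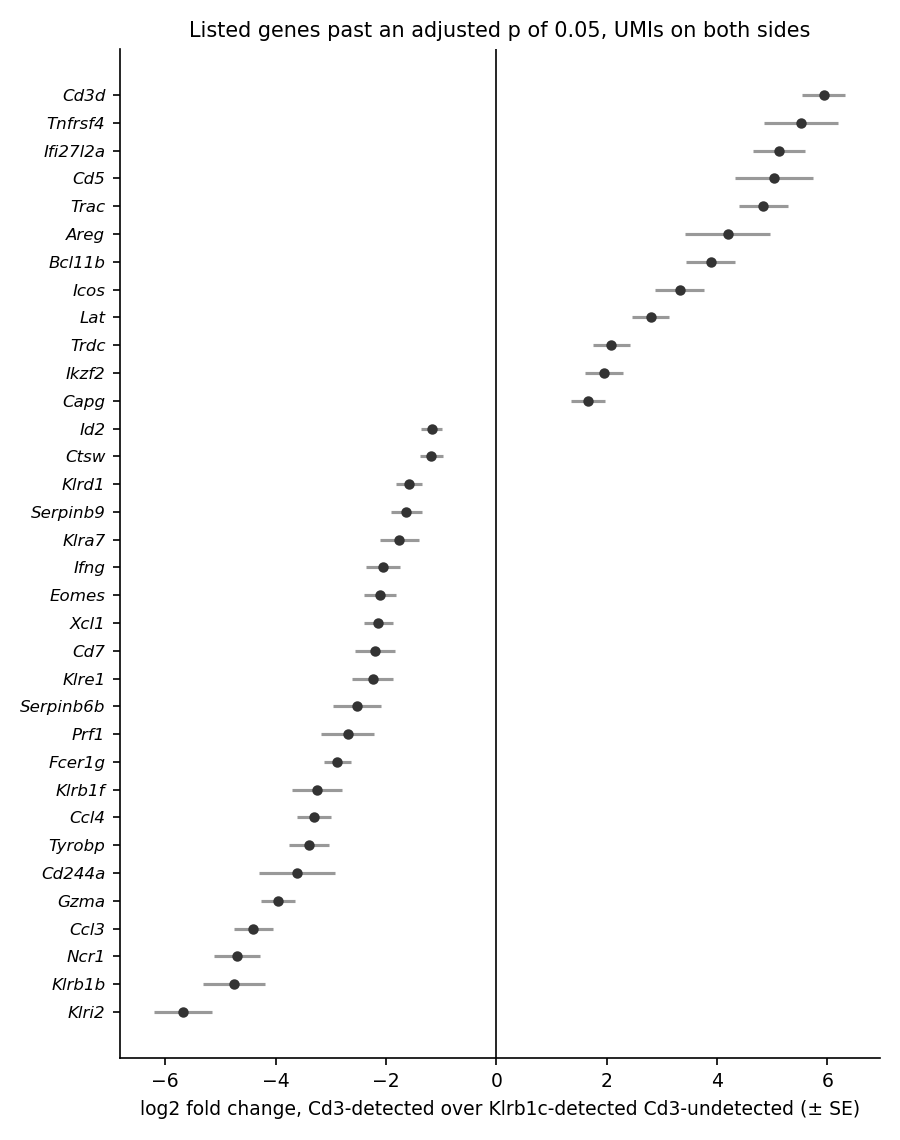
Log2 fold change, with its SE, of the 34 listed genes that passed an adjusted p of 0.05 and had UMIs on both sides, Cd3-detected over Klrb1c-detected Cd3-undetected members, edgeR with a library block over 3 libraries. Positive values, 12 genes from Capg to Cd3d, are higher in Cd3-detected cells, and negative values, 22 genes from Id2 to Klri2, are lower.

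Against all Cd3-undetected members, in 4 libraries, 1643 of 8463 genes passed (19.4%), 854 higher (10.1%) and 789 lower (9.32%) in Cd3-detected cells. All 7 tested granulocyte-monocyte progenitor genes, 7 of 7 basophil and mast cell genes and 14 of 15 cell cycle genes were lower, among them Prtn3 (-9.13) and Elane (-9.24), and all 15 T cell receptor signalling genes were higher. When the 119 members with progenitor or basophil genes were left out, 129 genes passed, of which 99 were among the 1643. Without control 2 the count was 779 and without control 3 it was 788. Between Klrb1c-detected and Klrb1c-undetected cells among the Cd3-undetected members, 508 of 5192 genes passed (9.78%), 285 higher (5.49%) and 223 lower (4.3%). NK receptors were higher in the Klrb1c-detected cells in 17 of 19 tested genes. So were 4 of 7 tested chondrocyte genes, Acan, Col9a1, Sox9 and Ucma (median log2 fold change 1.97). Cdh5 (1 of 6 endothelial genes) and Car2 (1 of 2 erythroid genes) were higher too. All 7 granulocyte-monocyte progenitor genes and 6 of 7 neutrophil genes were lower. The source of the cartilage RNA was not tested. The 508 fell to 1 without the members with progenitor or basophil genes, to 7 without control 2 and to 219 without control 3.

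Members made up 0.674%, 3.33% and 2.64% of filtered barcodes in controls 1 to 3 and 0.972%, 2.18% and 1.36% in knockouts 1 to 3. The Wilson intervals were 0.441 to 1.03, 2.97 to 3.73 and 2.33 to 3.00 in the controls and 0.669 to 1.41, 1.91 to 2.48 and 1.11 to 1.65 in the knockouts. They cover counting error only, and the libraries of a group differed by more than that. Replicate 1 of both groups was lowest. The means were 2.21% ± 1.38 and 1.50% ± 0.615 (SD, n = 3), a difference of -0.712 percentage points that did not exceed the spread between libraries (exact permutation test over 20 assignments, two-sided, p = 0.5). With 3 libraries a group no p below 0.1 can be reached. Without knockout 3 the difference was -0.640, and it ranged from -1.48 to -0.156 over all fits with 1 library left out.

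Among barcodes with a UMI of Ptprc, which sets aside cartilage and bone cells, members made up 4.77%, 6.30% and 6.43% in the controls and 3.32%, 4.26% and 3.66% in the knockouts. The groups did not overlap, with means of 5.83% ± 0.921 and 3.75% ± 0.472 (SD, n = 3) and a difference of -2.09 percentage points (exact permutation p = 0.1, the smallest the design allows), and -2.04 without knockout 3. Every other setting of the members' share with all 6 libraries gave an exact permutation p of 0.4 or higher. Members with progenitor or basophil genes were kept here, and Cd3-detected members alone were not set against this denominator. A lower share can come from fewer members or from more of the other leukocytes, and these cannot be told apart. Cd3-detected members alone made up 1.48% and 0.955% of filtered barcodes on average (difference -0.526, exact permutation p = 0.4), and Klrb1c-detected members without Cd3 made up 0.226% and 0.215% (difference -0.0105, p = 1.0).

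**Figure D4:**
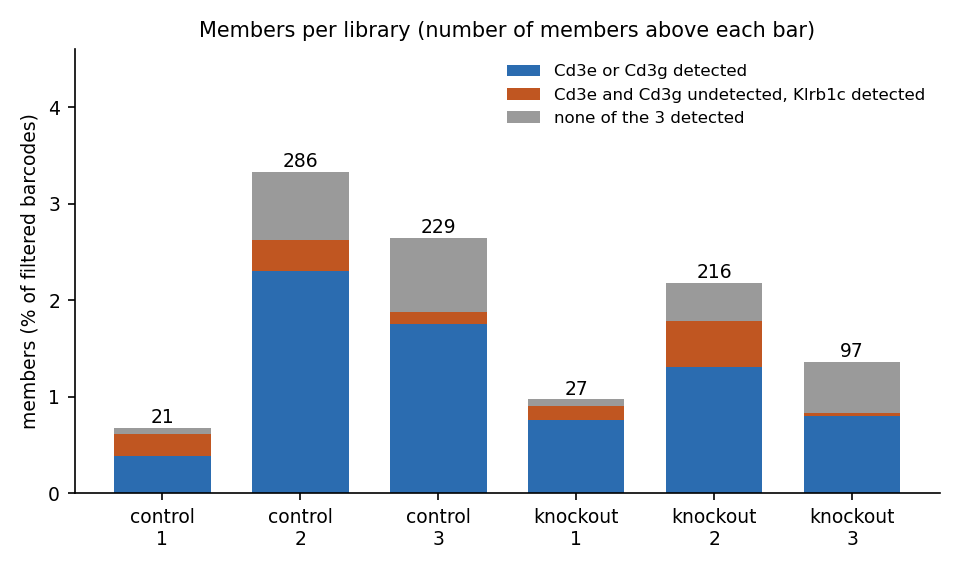
Members as a share of filtered barcodes in each of the 6 libraries, stacked by gate, with the number of members above each bar. The bars run from 0.674% in control 1 to 3.33% in control 2, replicate 1 is lowest in both groups, and the knockout bars lie within the range of the control bars.

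The make-up of the members did not separate the groups. Cd3-detected cells were 57.1%, 69.2% and 66.4% of members in the controls and 77.8%, 60.2% and 58.8% in the knockouts (difference of means 1.33 percentage points, exact permutation p = 0.8). Klrb1c-detected cells without Cd3 were 33.3%, 9.79% and 4.80% against 14.8%, 21.8% and 2.06% (difference -3.10). Among Cd3-detected cells, Cd4 was found in 16.7%, 13.6% and 13.8% against 42.9%, 6.15% and 14.04% (difference 6.31), and Cd8a in 33.3%, 19.2% and 21.7% against 19.0%, 39.2% and 10.5% (difference -1.81). In each of the 6 shares tested the groups overlapped and the Benjamini-Hochberg adjusted p was 0.96 or 1.0. The direction turned when 1 library was left out in all 6, so none is read as a direction.

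No gene passed the threshold between knockout and control in any fit of edgeR as designed. In Cd3-detected members 0 of 6470 genes (0%) passed, with 173 at an unadjusted p under 0.05 and 0 by DESeq2. In all members 0 of 9099 (0%) passed, with 143 unadjusted and 0 by DESeq2, and the groups did not overlap for 6.68% of these genes. In Cd3-undetected members, over 4 libraries, 0 of 7309 (0%) passed, with 417 unadjusted and 3 by DESeq2; with 2 libraries a group, 38.6% did not overlap. Prss34, a serine protease of basophils named after its values were seen, was at 615 and 1215 CPM in controls 2 and 3 and at 1.83 and 0 CPM in knockouts 2 and 3 of these members. Its fitted log2 fold change was -9.53 ± 0.87 against 1 UMI in the knockouts (adjusted p = 0.181 in edgeR, 1.33e-06 in DESeq2), so it did not pass by the test used here. Leaving out 1 of the 4 libraries gave an adjusted p from 0.0194 to 0.0324, but leaves 1 group with a single library that is assumed to vary like the other group. The 7 tested basophil and mast cell genes had a median of -2.28, against 0.01 over all genes. In none of the gene lists did a gene pass in Cd3-detected members. The list medians there were -0.81 for 10 regulatory T cell genes, -0.73 for 9 naive and recirculating genes, -0.67 for 11 NK receptors and 0.86 for 14 cell cycle genes, against 0.02 over all genes. In the same cells 6 chondrocyte genes had a median of -1.44 and 6 neutrophil genes of 1.02. The summed level of 8 chondrocyte genes was 30665, 6145 and 1237 CPM in the controls and 3903, 36.9 and 7032 CPM in the knockouts, led by Col2a1, and its part in these values was not tested.

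Among the Cd3-detected genes with the lowest unadjusted p, 3 are named here that were chosen after their values were seen. Il17a was at 99.0, 67.1 and 146 CPM in the controls and 17.1, 0 and 21.1 CPM in the knockouts. Each control lay above each knockout, as for 5.26% of the 6470 genes tested; the reverse held for 3.04%, and the groups did not overlap for 8.3% in all. The values rest on 1, 13 and 15 Il17a-positive cells in the controls and 3, 0 and 3 in the knockouts. As shares of Cd3-detected cells these were 8.33%, 6.57% and 9.87% against 14.3%, 0% and 5.26%, so that by share the groups overlap and knockout 1 was the highest. The log2 fold change was -3.20 ± 0.82 (SE) and did not pass (unadjusted p = 0.00377, adjusted p = 0.999 in edgeR). It was -3.83 without knockout 3 and lay between -3.83 and -2.46 over the 13 alternatives, and it passed in 1 of them, with no filter on low counts. Trdc, found in 18 of the 35 Il17a-positive cells, did not follow it (0.21 ± 0.62, and -0.19 without control 1 and -0.23 without knockout 1).

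Cxcr4, the receptor for the marrow chemokine CXCL12, was at 99.0, 131 and 109 CPM in the controls and 51.2, 28.9 and 52.6 CPM in the knockouts. The groups did not overlap, and the log2 fold change was -1.36 ± 0.35 (adjusted p = 0.999), -1.49 without knockout 3. By share of cells the groups overlap here too, at 66.7%, 31.3% and 32.9% against 47.6%, 12.3% and 19.3%. Cxcr4 had a UMI in 27.5% of Cd3-detected cells and 22.0% of the other barcodes. H2-Ab1, an MHC class II gene of antigen-presenting cells, was at 112, 137 and 35.1 CPM against 14.2, 19.2 and 24.6 CPM (-2.22 ± 0.56, adjusted p = 0.999), again without overlap in CPM, while the shares of cells overlap (33.3%, 10.6% and 4.61% against 14.3%, 8.46% and 10.5%). The log2 fold change was -2.37 without knockout 3 and passed in 1 of the 13 alternatives, with no filter on low counts. Ifng was at 59.4, 23.9 and 68.5 CPM against 11.4, 199 and 94.7 CPM and the groups overlapped (1.14 ± 0.83, and 0.07 without knockout 2).

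For 0 of 8463 genes did the contrast of Cd3-detected with Cd3-undetected members pass a test of its difference between the groups (interaction term in edgeR, 211 at an unadjusted p under 0.05, smallest adjusted p = 0.49). This fit had 2 libraries a group and does not show that the contrasts were alike.

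**Figure D5:**
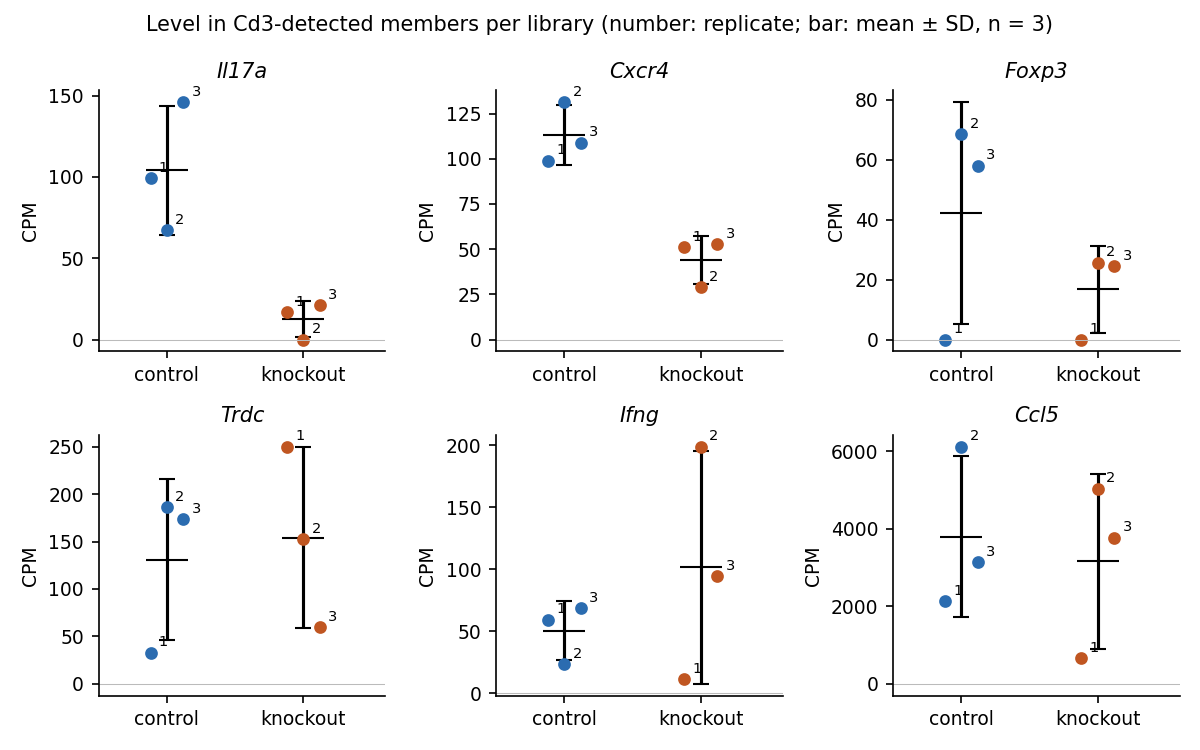
Level (CPM) of 6 genes in Cd3-detected members of each library, control and knockout, with the replicate number beside each point and the mean ± SD (n = 3) as a bar. For Il17a and Cxcr4 the knockout points (0 to 21.1 and 28.9 to 52.6 CPM) lie below every control point, while for Foxp3, Trdc, Ifng and Ccl5 the groups overlap; none of the 6 passed the adjusted test.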

How the data were processed

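The authors made 3′ single-cell libraries of callus, 3 of the control and 3 of the knockout group, and counted UMIs with Cell Ranger, version 6.1.1 for control 1 and knockout 1 and 6.1.2 for the rest; the submitters' notes name GRCm38 and Seurat. The deposited values are raw UMI counts, with no normalization. They were joined on the 52081 gene identifiers that all libraries list (97.8% to 99.7% of UMIs). The members, gene lists and tests were chosen with earlier results of these data known, and the contrast with Klrb1c-detected cells was added after the gates had been seen.

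Counts were summed per library and gate (at least 10 cells) and tested with edgeR 4.0.16 in R 4.3.3 (filterByExpr, TMM, quasi-likelihood F test, Benjamini-Hochberg), by group, or with the library as a block between gates. The SE is the log2 fold change divided by the square root of F. CPM is per 1000000 UMIs on shared genes. Shares were compared with exact permutation tests (scipy 1.17.1). Doublets were kept; an alternative removed the highest Scrublet scores (scanpy 1.11.5), 57 members. The edgeR step was run on simulated counts with a fixed dispersion and no difference between libraries other than depth. No power or error rate for these data is read from that run. Named genes are up to 4 per list, the 15 of highest ratio to other barcodes, and up to 10 per direction and contrast with the largest change among those that passed and had at least 20 CPM. Between gates the last kind also had the same direction in every library, and between groups no overlap was asked for. Genes outside this rule were named after their values were seen, and some genes within it are not reported here. Same-numbered libraries deviated together across groups (correlations 0.501, 0.296 and 0.256 over 9099 genes in members), but so did control 2 with knockout 3 (0.373) and control 3 with knockout 2 (0.178), which sets replicate 1 apart and does not single out pairs 2 and 3. Each same-number correlation being over 0.1, the numbers were taken to pair libraries, and a replicate block was an alternative. Other alternatives were DESeq2 1.42.0, other filters, rule thresholds and denominators, thinning to 700 UMIs, and each library left out.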

Additional observations from a re-analysis of the deposited data

How the results depend on the processing

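Between knockout and control, the share of members kept its sign under all 17 alternatives, from -1.48 to -0.156 percentage points with 1 library left out. The 6 shares within members did not: Cd3-detected ranged from -4.78 to 4.73 with 1 library left out and was -0.366 with at least 5 UMIs of the rule genes; Klrb1c-detected without Cd3 ranged from -8.68 to 5.58; those with neither from -7.04 to 8.84, and -0.919 without progenitor members; Cd4 from -4.61 to 13.7; Cd8a from -9.96 to 4.39; and Klrb1c among Cd3-detected cells from -5.49 to 0.826, and 1.11 after thinning. Singly, these were -2.23 (Cd3-detected), 5.58, -3.35 and 2.48 (Cd8a) without control 1; -4.78, -4.61 (Cd4) and 0.133 (Cd8a) without knockout 1; 2.31, -7.04 and 4.39 (Cd8a) without knockout 3; and 0.826 and 0.434 (Klrb1c) without controls 2 and 3.

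Genes past the threshold between groups numbered 39 in members, 50 in Cd3-detected and 37 in Cd3-undetected members with no filter on low counts, and 0 to 1, 0 to 0 and 4 to 12 with 1 library left out; for Cd3-undetected members this leaves 1 group with a single library, which is assumed to vary like the other group. In Cd3-undetected members DESeq2 gave 3 and leaving out progenitor members gave 3. The replicate block gave 0 in each of the 3. For the share of members the differences within replicates 1 to 3 were 0.298, -1.15 and -1.28 percentage points (exact sign-flip permutation p = 0.5), among Ptprc barcodes -1.45, -2.04 and -2.77 (p = 0.25), and for the 6 shares within members p was 0.75 to 1.0; the smallest possible is 0.25, so no call could change. Between Cd3-detected and Cd3-undetected members the count was 1081 with DESeq2, 764 with no library block, 84 after thinning, 129 without progenitor members and 779 to 1716 with 1 library left out. Against Klrb1c-detected cells it was 259 with no filter, 33 with no library block and 55 to 110 with 1 library left out. Between Klrb1c-detected and undetected cells it was 283 with DESeq2, 779 with no filter, 264 with no library block, 1 without progenitor members and 7 to 619 with 1 library left out. Of 720 fold changes of named genes between gates under the alternatives none changed sign and 93 lost the threshold; between groups Trdc in Cd3-detected members turned to -0.19 without control 1 and -0.23 without knockout 1 (-0.23 to 0.60 with 1 library left out). Causes were not tested. Thinning could not be fitted for the Klrb1c comparisons, nor leaving out replicate 3 of both groups for Cd3-undetected members. Depth limits the calls of Cd4, Cd8a and Klrb1c per cell.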
